A study of Homo sapiens with 6 samples.

Results

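The genes described here are 36 chaperones, folding enzymes, degradation factors and stress sensors of the endoplasmic reticulum (ER), the compartment in which secreted and membrane proteins fold. They form a list of gene symbols with no measured value in its rule, but earlier results of these data were known when it was chosen. Each of the 36 was found in the deposited table of 24294 loci, and 34 of them were among the 11574 loci that were tested, those whose mean over the libraries reached 1 FPKM (fragments scaled to transcript length and to library size). They were measured by mRNA sequencing in MCF12A cells with a stable miR-424 construct (3 samples) and in MCF12A cells that carried an empty vector, EV (3 samples), all grown for 48 h. The labels call MCF12A a breast cancer line, although it is known as an immortalized, non-tumorigenic human mammary epithelial line. Both groups carry a stable vector. The labels name neither the promoter of the construct nor whether a group is 1 clone. They say that cells were grown in triplicate but not whether the 3 samples of a group are independent cultures, so the p-values rest on a spread that may be technical only. The study's title concerns epithelial-mesenchymal transition downstream of TWIST1. The comparison here sets the mRNA levels of ER genes in cells with the miR-424 construct beside those in cells with the empty vector.

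The unfolded protein response is the reaction of a cell to misfolded protein in the ER. It starts at 3 sensors in the ER membrane, the products of ERN1 (IRE1), ATF6 and EIF2AK3 (PERK), which raise the transcription of chaperones, disulfide isomerases and the machinery that sends misfolded proteins out of the ER for degradation. In secretory epithelia such as the mammary gland the same genes set how much protein the ER can fold. Activation of the sensors works through phosphorylation, splicing of XBP1 mRNA and cleavage of ATF6, none of which is read by an mRNA level.

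The sequence of the microRNA is shown because direct targets usually pair with its seed in their 3′ UTR. The mature sequence in RefSeq (GRCh38.p14, chromosome X, 134546680 to 134546701, minus strand) is given 5′ to 3′ with the seed, bases 2 to 8, in capitals. In the target sites from GENCODE 29 transcripts the capitals mark the 7 bases that pair with the seed. A position is that of the first capital, counted from 1 at the start of the 3′ UTR. The sites shown are those of the 4 genes with a match whose miR-424 libraries all lay below the EV libraries. They were thus picked by their values, none of the 4 genes passed the test for a change, and pairing with the microRNA was not tested. PDIA6, UGGT1, SEL1L and ERN1 also had a match, and their groups overlapped.
hsa-miR-424-5p: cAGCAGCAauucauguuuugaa
CREB3L1, position 508 of its 3′ UTR of 676 bases: aagttagtgcgggcttTGCTGCTc
CREB3L1, position 563: tcacctggcaccccccTGCTGCTg
ATF6, position 67 of 5416 bases: gagcaggtgagcaaaaTGCTGCTt
ATF6, position 4269: cagaaattaggattgtTGCTGCTa
OS9, position 163 of 648 bases: gggggccctgggtgaaTGCTGCTg
SEC61A1, position 72 of 2020 bases: ctctcatcatggcgcgTGCTGCTg
SEC61A1, position 1704: actgccctgtctgctcTGCTGCTa

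Promoters are shown for HSP90B1, HSPA5 and XBP1, which carry the ER stress response element, the site through which ATF6 and XBP1 are known to act. The element was searched on both strands as CCAAT, 9 bases of any kind and CCACG, in windows of 300 bases around each gene's RefSeq start (250 before it). It is in capitals in each sequence; the second one of HSP90B1 lies on the other strand and reads from CGTGG to ATTGG. The windows are on GRCh38.p14, given 5′ to 3′ on the strand of the gene. Some genes have more than 1 window, and a gene counted as having an element when any of its windows held it. XBP1 has a further window, chr22:28800028-28800327, which lacks the element and is not shown.
HSP90B1, chr12:103930160-103930459, plus strand: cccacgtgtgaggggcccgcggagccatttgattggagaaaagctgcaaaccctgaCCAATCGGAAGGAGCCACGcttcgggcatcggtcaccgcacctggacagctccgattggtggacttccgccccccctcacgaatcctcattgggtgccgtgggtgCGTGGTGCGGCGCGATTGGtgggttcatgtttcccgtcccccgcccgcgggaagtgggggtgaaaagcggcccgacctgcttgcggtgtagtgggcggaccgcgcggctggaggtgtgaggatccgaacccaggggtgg
HSPA5, chr9:125241294-125241593, minus strand: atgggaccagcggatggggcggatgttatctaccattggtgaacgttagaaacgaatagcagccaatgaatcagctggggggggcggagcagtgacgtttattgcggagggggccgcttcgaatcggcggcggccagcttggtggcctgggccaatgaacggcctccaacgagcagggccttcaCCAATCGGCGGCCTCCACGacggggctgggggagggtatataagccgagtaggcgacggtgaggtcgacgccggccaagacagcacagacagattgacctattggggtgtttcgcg
XBP1, chr22:28800520-28800819, minus strand: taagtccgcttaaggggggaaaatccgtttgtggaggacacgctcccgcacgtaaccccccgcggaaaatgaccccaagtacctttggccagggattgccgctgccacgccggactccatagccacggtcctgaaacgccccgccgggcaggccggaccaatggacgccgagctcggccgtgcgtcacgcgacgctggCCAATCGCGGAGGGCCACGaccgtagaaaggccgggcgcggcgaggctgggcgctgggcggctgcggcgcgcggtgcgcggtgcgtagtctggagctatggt

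The element was found in 8 of the 33 genes with a RefSeq window (24.2%), namely HSP90B1, CALR, HSPA5, CANX, PDIA6, XBP1, CRELD2 and ERO1LB, and in 25 of 27305 genes in all (0.0916%). The related element ERSE-II, searched as ATTGG, 1 base of any kind and CCACG, was found in HYOU1, HERPUD1 and SDF2L1 (9.1%, against 0.0696% of all genes). The letters TGACGTGG, the unfolded protein response element, were found in HYOU1 (3.0%, against 0.927% of all genes). The 3 searches overlap in the letters CCACG, which TGACGTGG holds on its other strand. A match describes the letters in a window and is not a measured binding site. The members were listed as genes of the response to which these elements belong, so these shares describe the list and are no test.

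The construct showed in each library: the locus listed as MGC16121/MIR424 read 107, 106 and 224 FPKM in miR-424 replicates 1, 2 and 3 and between 0.989 and 1.27 FPKM in the EV libraries. Each library had a total of 409776 to 424564 FPKM. The sources used here give no read numbers, and depth is unknown. miR-424 replicate 3 stood apart from the other 5 libraries. Its median absolute log2 difference per locus was 0.142 and 0.152 from miR-424 replicates 1 and 2, which differed from each other by 0.0408, and pairs of EV libraries differed by 0.0357 to 0.0417. The same library had the highest level of the MIR424 locus, 224 FPKM. The part of the construct level in the differences of this library was not tested. Of 10 mammary epithelial markers 7 reached 1 FPKM in some library (summed level 293 to 324 FPKM in miR-424 and 324 to 338 FPKM in EV libraries), with KRT5, KRT8 and KRT18 expressed, while E-cadherin (CDH1) stayed below 0.04 FPKM in each library. Of 7 fibroblast markers COL1A1 and DCN reached 1 FPKM (summed level 164 to 186 FPKM in miR-424 and 156 to 166 FPKM in EV libraries). Of 6 leukocyte markers none did (summed level 0.980 to 1.01 FPKM in miR-424 and 0.912 to 1.26 FPKM in EV libraries), nor did any of 5 endothelial markers. Among these markers KRT5 was lower (40.7 ± 3.22 FPKM in miR-424 cells and 63.7 ± 2.27 FPKM in EV cells; Benjamini-Hochberg (BH) adjusted p = 0.00415 by limma). KRT14 was higher (4.36 ± 0.799 FPKM in miR-424 cells and 2.25 ± 0.241 FPKM in EV cells; BH-adjusted p = 0.0165 by limma), as was COL1A1 (45.2 ± 1.66 FPKM in miR-424 cells and 39.0 ± 1.49 FPKM in EV cells; BH-adjusted p = 0.0456 by limma; SD, n = 3 each). The part of these markers in the results was not tested.

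Most genes of the ER folding machinery were well expressed in both groups, and none of those tested passed the test for a change. The members together made up 0.811%, 0.813% and 0.750% of all FPKM in miR-424 replicates 1, 2 and 3, against 0.758%, 0.767% and 0.760% in EV replicates 1, 2 and 3. The change nearest to the threshold was a higher level of the chaperone gene HSP90B1 (780 ± 52.3 FPKM in miR-424 cells and 677 ± 7.24 FPKM in EV cells, SD, n = 3 each), followed by a lower level of the transcription factor gene CREB3L1 (7.62 ± 1.38 FPKM in miR-424 cells and 10.5 ± 0.0831 FPKM in EV cells). HSPA5, which encodes the ER chaperone BiP and is a standard marker of ER stress, stood at 261 ± 16.4 FPKM in miR-424 cells and 266 ± 2.63 FPKM in EV cells.

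With limma on log2(FPKM + 1), 0 of the 34 tested members passed a BH-adjusted p of 0.05 in either direction, and the adjusted p lay between 0.0702 (HSP90B1) and 0.991 (PDIA6). Over all 11574 tested loci 1.24% passed as higher in miR-424 cells, 6.32% as lower and 7.56% in either direction. At an unadjusted p under 0.05, 1 member was higher and 5 were lower, against 4.29% and 19.3% of all tested loci. The median log2 change of the members was -0.01 and their median absolute change 0.04, against -0.05 and 0.08 over all tested loci. The sign of that median depended on the scaling: it was 0.04 under median-of-ratios scaling, where that of all loci was 0.0021, and 0.03 under quantile normalization, where that of all loci was 0.0055. The 95% confidence intervals, not adjusted for the number of genes, lay within ±0.25 on the log2 scale, a change of at most 18.9% upward in FPKM + 1, for 21 of the 34 members. They lay within ±0.5 for 31 of them; the exceptions were ERO1L, SDF2L1 and CREB3L1. In bulk RNA, fewer cells that express a gene and less RNA per cell cannot be told apart.

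The 3 miR-424 values did not overlap the 3 EV values in 7 members: HSP90B1 was higher, and CREB3L1, ATF6, CREB3, OS9, DNAJB11 and SEC61A1 were lower. Over all tested loci 6.59% were higher and 26.9% lower without overlap, so the share of the members on the lower side, 6 of 34, was below that of all loci. These 7 genes, like the other members given with single values apart from ERN1, ATF6, XBP1 and HSPA5, were picked out after their values were seen. None of the 7 changed direction in any of the 17 alternative settings.

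**Figure D1:**
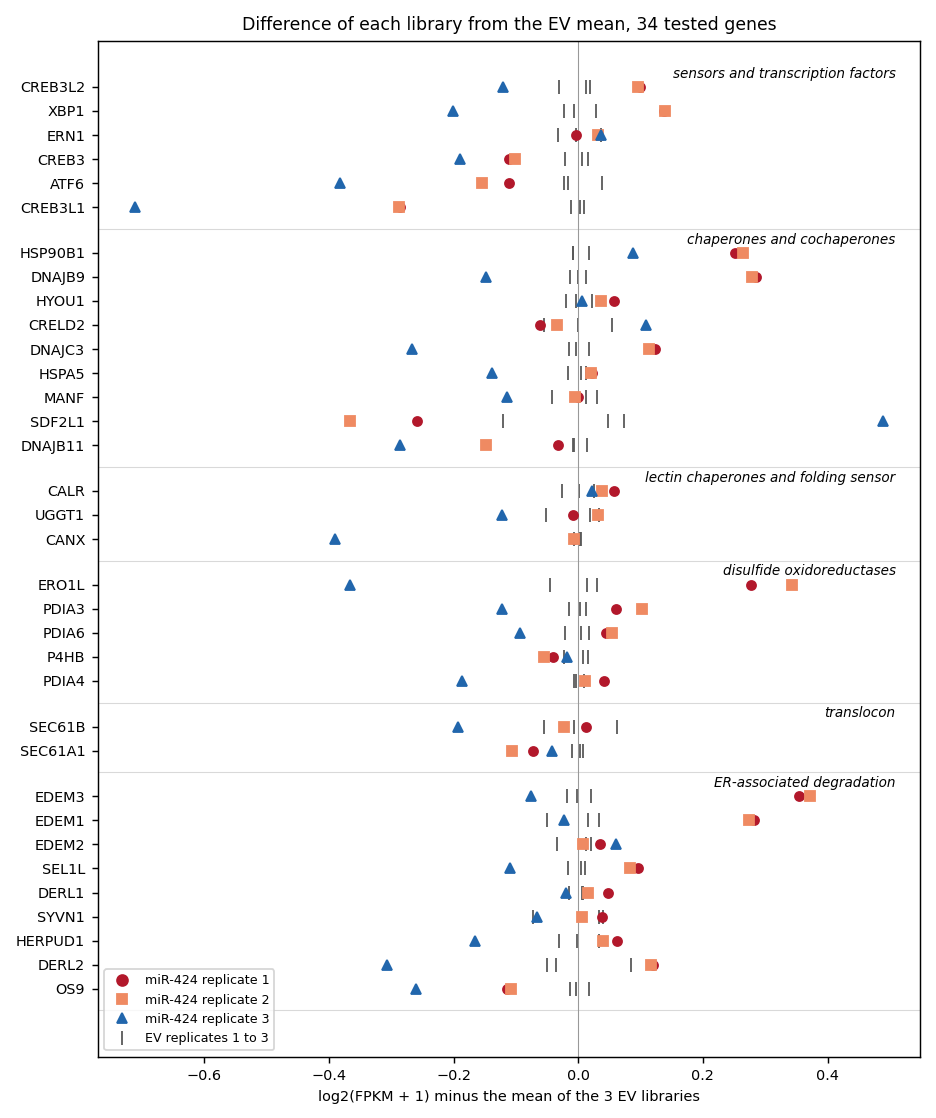
Each row is a tested gene, grouped by role, and the x axis is log2(FPKM + 1) in a library minus the mean of the 3 EV libraries. Coloured symbols are miR-424 replicates 1, 2 and 3 and grey ticks the EV libraries; miR-424 replicate 3 lies left of replicates 1 and 2 in most genes (28 of 34 below their mean), and HSP90B1 is the gene with all 3 miR-424 symbols right of the EV ticks.

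Among the 6 sensors and transcription factors, 3 had all miR-424 libraries below all EV libraries and the other 3 overlapped. ERN1 (chromosome 17, 62120389 to 62207502, hg19), the kinase and endoribonuclease that splices XBP1 mRNA, read 1.18, 1.23 and 1.24 FPKM in miR-424 replicates 1, 2 and 3 and 1.14, 1.18 and 1.24 FPKM in EV replicates 1, 2 and 3. It was the lowest of the tested members and its groups overlapped, with a log2 change of 0.02 ± 0.04 (SE; 95% interval -0.08 to 0.13; BH-adjusted p = 0.830 by limma). XBP1 (chromosome 22, 29190547 to 29196560), the transcription factor made from the spliced mRNA, read 27.3, 27.4 and 21.4 FPKM in miR-424 libraries and 24.6, 24.3 and 25.3 FPKM in EV libraries. Replicates 1 and 2 were above and replicate 3 below each EV library, so that the log2 change of 0.02 ± 0.09 had an interval of -0.20 to 0.25 (BH-adjusted p = 0.914 by limma). The deposited values are per locus and do not separate spliced from unspliced XBP1.

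ATF6 (chromosome 1, 161736033 to 161933860), the sensor whose cytosolic part is cut off to become a transcription factor, read 9.36, 9.05 and 7.59 FPKM in miR-424 libraries and 10.1, 10.5 and 10.0 FPKM in EV libraries. All miR-424 values were lower, by 0.11 to 0.38 on the log2 scale from the EV mean, and the log2 change was -0.22 ± 0.08 (SE; interval -0.40 to -0.04; BH-adjusted p = 0.145 by limma). CREB3L1 (chromosome 11, 46299227 to 46342972), a membrane-bound relative of ATF6 that is known to control collagen and secretory genes, read 8.43, 8.41 and 6.02 FPKM in miR-424 libraries and 10.6, 10.5 and 10.4 FPKM in EV libraries. It had the most negative change of the tested members, -0.43 ± 0.11 (SE; interval -0.70 to -0.15; BH-adjusted p = 0.0735 by limma), and its EV values were close together. CREB3, a further membrane-bound factor, read 18.7, 18.8 and 17.7 FPKM in miR-424 libraries and 20.5, 20.3 and 20.0 FPKM in EV libraries. Its difference was smaller but of the same sign in each library (log2 change -0.13 ± 0.04, SE; BH-adjusted p = 0.107 by limma). CREB3L2, the close relative of CREB3L1, had the highest level of this class (54.8 ± 1.03 FPKM in EV cells, SD) and overlapping groups.

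The 9 chaperones and cochaperones spanned 7.99 to 728 FPKM in their means over all libraries. HSP90B1 (chromosome 12, 104324111 to 104341708), the ER form of HSP90, which folds a limited set of clients such as integrins and Toll-like receptors, was the most abundant member on the FPKM scale. It read 806, 813 and 719 FPKM in miR-424 libraries and 673, 685 and 673 FPKM in EV libraries. All miR-424 values were higher, with replicate 3 nearest to the EV level, and the log2 change was 0.20 ± 0.05 (SE; interval 0.08 to 0.33; BH-adjusted p = 0.0702 by limma). The table lists it with MIR3652, a small RNA in the same locus, and gives both 1 value. The call depended on the scaling. HSP90B1 passed in 5 of 17 alternatives, among them median-of-ratios scaling, where it was the 1 member past the threshold (BH-adjusted p = 0.0173 by limma) and where 2.62% of all loci passed as higher and 4.33% as lower.

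HSPA5 (chromosome 9, 127997126 to 128003666), the HSP70 of the ER, read 270.3, 269.9 and 242 FPKM in miR-424 libraries and 267, 268 and 263 FPKM in EV libraries. Replicates 1 and 2 lay 0.02 above the EV mean on the log2 scale and replicate 3 lay 0.14 below it. The log2 change was -0.03 ± 0.05 (SE; interval -0.15 to 0.09; BH-adjusted p = 0.773 by limma). None of its cochaperones of the J-domain family passed, and the order of their libraries was not the same in all of them. DNAJB11, which hands substrates to HSPA5, read 59.5, 54.9 and 49.7 FPKM in miR-424 libraries and 61.5, 60.5 and 60.6 FPKM in EV libraries, lower in each miR-424 library (log2 change -0.16 ± 0.07, SE; BH-adjusted p = 0.209 by limma). DNAJB9, which also restrains ERN1, read 9.38, 9.32 and 6.69 FPKM in miR-424 libraries and 7.59, 7.51 and 7.44 FPKM in EV libraries. Replicates 1 and 2 lay above and replicate 3 below the narrow EV range, and DNAJC3, a cochaperone that also inhibits eIF2 kinases, showed the same order (14.97, 14.9 and 11.2 FPKM in miR-424 libraries, 13.5 to 13.9 FPKM in EV libraries).

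SDF2L1, a partner of DNAJB11 in the HSPA5 cycle, was the least uniform member. It read 8.34, 7.66 and 14.7 FPKM in miR-424 libraries and 9.27, 10.5 and 10.8 FPKM in EV libraries, so that replicates 1 and 2 were the lowest and replicate 3 the highest of the 6. Its transcript has the highest GC content of the tested members, 65.5%. HYOU1, a nucleotide exchange factor for HSPA5, stood at 52.4 ± 0.961 FPKM in miR-424 cells and 51.2 ± 0.773 FPKM in EV cells (SD, n = 3 each). MANF and CRELD2, secreted proteins made under ER stress, had log2 changes of -0.04 and 0.0049. The 3 genes had groups that overlapped.

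The lectin chaperones, which hold newly made glycoproteins through their sugars, differed from each other in the spread of their miR-424 libraries. Their log2 changes had opposite signs, and neither gene passed. CALR (calreticulin), the second most abundant member on the FPKM scale, read 455, 449 and 444 FPKM in miR-424 libraries and 429, 437 and 445 FPKM in EV libraries. CANX (calnexin), its membrane-bound counterpart, read 203, 203 and 155 FPKM in miR-424 libraries and 204, 204 and 203 FPKM in EV libraries. In CANX the difference between the groups thus came from 1 library, replicate 3, and in CALR no library stood apart. UGGT1, which marks unfolded glycoproteins for another round of folding, had a log2 change of -0.03 ± 0.05 (SE; BH-adjusted p = 0.774 by limma).

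Of the 6 oxidoreductase genes, which make and rearrange disulfide bonds, 5 were tested and their groups overlapped. P4HB, protein disulfide isomerase itself, stood at 334 ± 4.25 FPKM in miR-424 cells and 343 ± 4.96 FPKM in EV cells (SD, n = 3 each). PDIA3, which works with calnexin and calreticulin, PDIA4 and PDIA6 had log2 changes between -0.04 and 0.01. ERO1L, the oxidase that feeds disulfide isomerase, read 30.6, 32.1 and 19.2 FPKM in miR-424 libraries and 25.4, 25.7 and 24.3 FPKM in EV libraries. Its interval of -0.34 to 0.51 on the log2 scale was among the widest of the members. ERO1LB, its relative, lay between 0.290 and 0.475 FPKM over all libraries and was not tested.

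The translocon, the channel through which proteins enter the ER, was represented by SEC61A1 and SEC61B. SEC61A1, the channel subunit, read 178, 174 and 182 FPKM in miR-424 libraries and 188, 186 and 188 FPKM in EV libraries. Each miR-424 library was below each EV library, with a log2 change of -0.07 ± 0.03 (SE; interval -0.15 to 0.01), and did not pass. SEC61B, the small subunit beside the channel, had overlapping groups and a log2 change of -0.07 ± 0.06.

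Among the 10 genes of ER-associated degradation, 9 were tested. OS9, the lectin that recognises trimmed glycans on misfolded proteins, had all miR-424 libraries below the EV libraries (64.2, 64.4 and 57.9 FPKM in miR-424 libraries, 68.9, 69.3 and 70.3 FPKM in EV libraries; log2 change -0.16 ± 0.05, SE; BH-adjusted p = 0.110 by limma). The EDEM genes encode proteins of the mannosidase family that trim those glycans. EDEM3 read 14.1, 14.2 and 10.2 FPKM in miR-424 libraries and 10.8, 11.0 and 10.6 FPKM in EV libraries, and EDEM1 read 22.6, 22.5 and 18.1 FPKM in miR-424 libraries and 18.9, 18.6 and 17.8 FPKM in EV libraries. In both genes replicates 1 and 2 were well above the EV range and replicate 3 was within it or below it. The log2 changes were 0.22 ± 0.12 for EDEM3 and 0.18 ± 0.09 for EDEM1 (SE; BH-adjusted p = 0.331 and 0.281 by limma). EDEM2 had groups that overlapped (12.5 ± 0.247 FPKM in miR-424 cells and 12.2 ± 0.269 FPKM in EV cells, SD).

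The ubiquitin ligase SYVN1 (HRD1), its adaptor SEL1L and HERPUD1, which helps to assemble their complex, had log2 changes of -0.01, 0.02 and -0.02. DERL1 and DERL2, membrane proteins of the exit channel, had log2 changes of 0.01 and -0.02, and all 5 genes had overlapping groups. DERL3, the third gene of that family, was at most 0.02 FPKM in each library and was not tested.

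**Figure D2:**
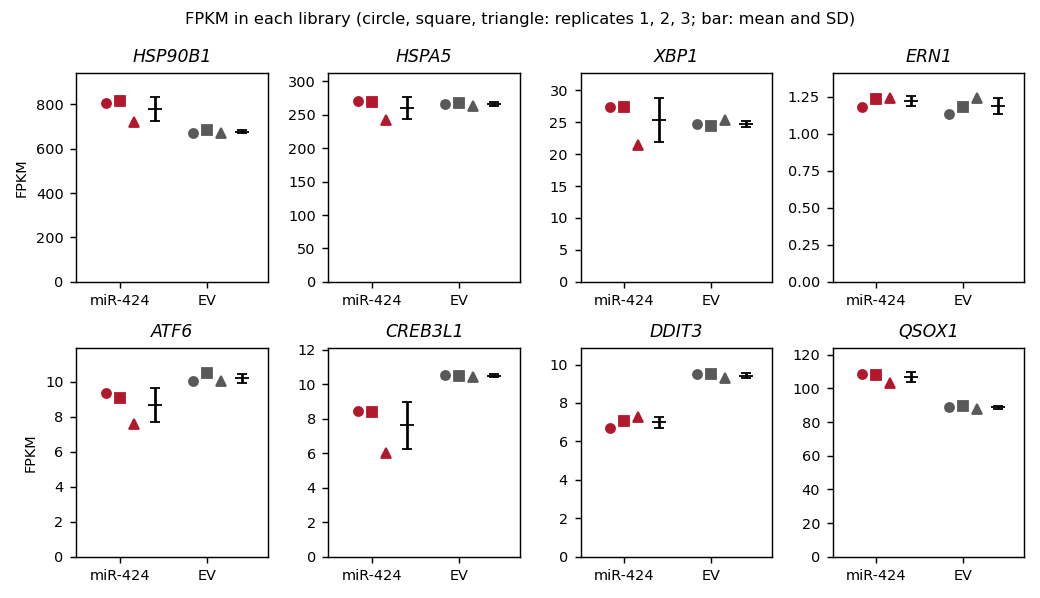
FPKM (y axis, from 0) in each miR-424 and EV library, where circles, squares and triangles are replicates 1, 2 and 3 and the bar is the mean with SD (n = 3). The miR-424 libraries lie above the EV libraries for HSP90B1 and QSOX1, below them for ATF6, CREB3L1 and DDIT3, and overlap them for HSPA5, XBP1 and ERN1.

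Replicate 3 of the miR-424 cells set much of the spread of these genes. It was below the mean of replicates 1 and 2 in 28 of 34 members and the lowest of all 6 libraries in 23. Over the 3 miR-424 libraries the coefficient of variation of FPKM had a median of 7.86% and a maximum of 37.8%, against 1.48% and 7.89% over the EV libraries, and it was larger in the miR-424 libraries for 29 members. Replicates 1 and 2 were both above all EV libraries in 18 members, and in 14 of these replicate 3 was below all EV libraries. Both were below all EV libraries in 8 members. Over all 11574 tested loci, replicates 1 and 2 were both above in 3108 and both below in 4142. As a share, the members thus exceeded all loci on the side above and fell short of them on the side below. The other member counts given here were not set against all loci and cannot be read as particular to these genes. The median difference of the members from the EV mean was 0.04, 0.03 and -0.12 on the log2 scale in miR-424 replicates 1, 2 and 3, against -0.02, -0.02 and -0.11 over all tested loci.

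This order went with the GC content of the transcripts. In miR-424 replicates 1 and 2 the members with less GC were higher relative to EV, with a Spearman correlation of -0.63 and -0.66 between GC content and difference over the 34 genes, whereas in replicate 3 it was 0.36. Over all tested loci with a GC value the same correlations were -0.42, -0.50 and 0.30, so the pattern was present across the table. These correlations are across genes measured in the same libraries and carry no test. Loci under 40% GC had a median difference of 0.07, 0.08 and -0.22 in miR-424 replicates 1, 2 and 3, and loci over 60% GC one of -0.09, -0.12 and -0.05. EDEM3, ERO1L and DNAJB9 have 38.6%, 38.7% and 40.4% GC, and SDF2L1 and CREB3L1 have 65.5% and 61.1%. The part of GC content in the differences of single genes was not tested beyond the fits with the trend removed.

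**Figure D3:**
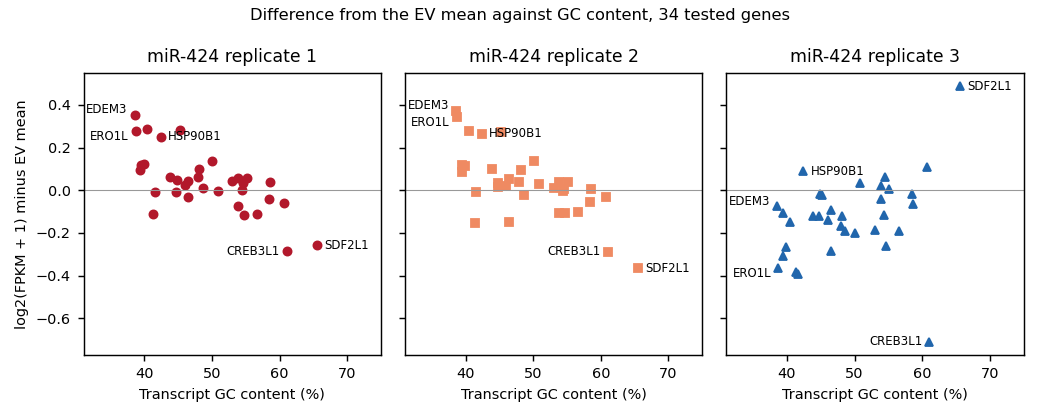
Difference of each tested gene from the EV mean on the log2(FPKM + 1) scale (y axis) against the GC content of its transcript in percent (x axis), 1 panel per miR-424 library. In replicates 1 and 2 the points run down from EDEM3 and ERO1L to SDF2L1, whereas in replicate 3 SDF2L1 is the highest point and CREB3L1 the lowest.

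Without miR-424 replicate 3, the library with the highest level of the MIR424 locus, many members passed. In that limma fit, where the pair of remaining miR-424 libraries is assumed to vary like the EV libraries, 10 members were higher (HSP90B1, EDEM3, EDEM1, ERO1L, DNAJB9, XBP1, DNAJC3, CREB3L2, SEL1L and PDIA3) and 6 were lower (CREB3L1, SDF2L1, ATF6, OS9, CREB3 and SEC61A1). Over all tested loci 14.9% passed as higher and 22.2% as lower in the same fit. EDEM3 had a log2 change of 0.36 ± 0.03, ERO1L of 0.31 ± 0.03, DNAJB9 of 0.28 ± 0.03 and XBP1 of 0.14 ± 0.02 (SE). HSPA5 stayed at 0.02 ± 0.02 (interval -0.02 to 0.06).

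With the trend on GC content removed from each library, and all 6 libraries kept, HSP90B1 (0.23 ± 0.03), EDEM1 (0.21 ± 0.05) and EDEM3 (0.24 ± 0.05) passed as higher and ATF6 (-0.18 ± 0.03) as lower on the log2 scale (SE; BH-adjusted p = 0.00694, 0.0404, 0.0246 and 0.0168 by limma). Over all loci with a GC value 5.97% passed as higher and 7.29% as lower. CREB3L1 did not pass there (-0.35 ± 0.12, SE; BH-adjusted p = 0.106 by limma). With the trend removed and replicate 3 left out, 11 members were higher and 2 lower, against 14.7% and 15.1% of all loci with a GC value. The 11 were HSP90B1, EDEM3, EDEM1, ERO1L, DNAJB9, XBP1, CREB3L2, HYOU1, CALR, PDIA4 and PDIA3, and the 2 lower genes were CREB3L1 (-0.19 ± 0.03) and ATF6 (-0.17 ± 0.03). SDF2L1, OS9, CREB3 and SEC61A1, lower without replicate 3, did not pass once the GC trend was also removed, nor did DNAJC3 and SEL1L among the higher genes.

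**Figure D4:**
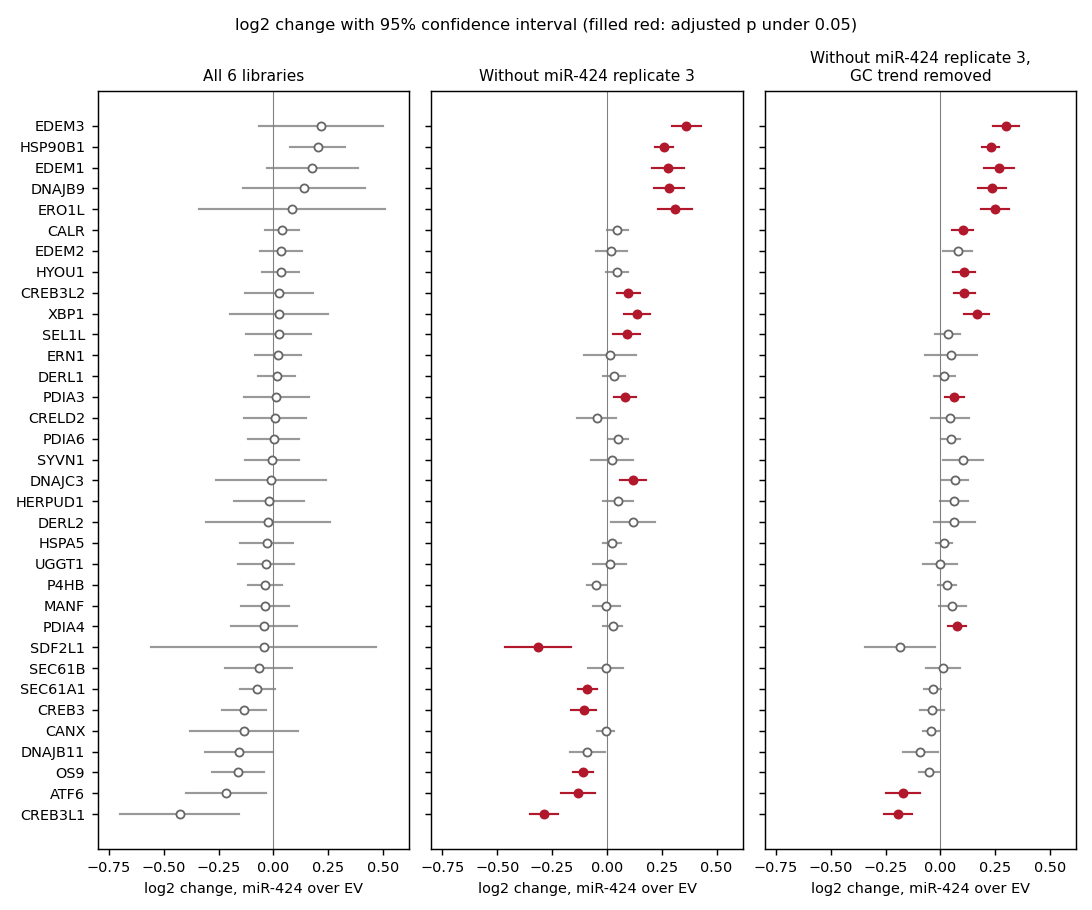
log2 change of miR-424 over EV with its 95% confidence interval (x axis) for each tested gene, in 3 fits: all 6 libraries, without miR-424 replicate 3, and without it after removal of the GC trend. Filled red points passed a Benjamini-Hochberg adjusted p of 0.05; they number 0, 16 and 13 from left to right, with HSP90B1, EDEM3 and EDEM1 near the top and CREB3L1 and ATF6 at the bottom.

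Neighbouring genes of the same pathways were counted from 7 lists with 90 genes, of which 87 were tested. In the fit with all libraries 1 of them rose and 7 fell, shares near the 1.24% higher and 6.32% lower over all tested loci. In the PERK arm, the branch that slows translation and induces ATF4 and its targets, 2 of 8 tested genes fell and 0 rose. DDIT3 (CHOP; chromosome 12, 57881735 to 57914300, a bundle that the table also gives for MARS), a transcription factor linked to cell death under prolonged ER stress, read 6.68, 7.05 and 7.25 FPKM in miR-424 libraries and 9.49, 9.50 and 9.29 FPKM in EV libraries. All miR-424 values, replicate 3 included, were lower, and the log2 change was -0.38 ± 0.04 (SE; BH-adjusted p = 0.00655 by limma). ATF3, a stress-induced factor, fell to 2.87 ± 0.221 FPKM in miR-424 cells, against 3.56 ± 0.0309 FPKM in EV cells (SD, n = 3 each; BH-adjusted p = 0.0469 by limma). The ATF3 call was lost under quantile normalization, without a filter on low values, and without miR-424 replicate 1 or 2 (BH-adjusted p = 0.0526, 0.0814, 0.114 and 0.0626 by limma). A block on replicate number also ended the ATF3 call, without and with removal of the GC trend (BH-adjusted p = 0.106 and 0.0675 by limma). ATF4, the factor upstream of both, did not pass although its groups did not overlap (108 ± 1.93 FPKM in miR-424 cells and 115 ± 2.52 FPKM in EV cells; BH-adjusted p = 0.193 by limma). The kinase gene EIF2AK3 had a log2 change of -0.04 ± 0.06 (SE; BH-adjusted p = 0.741 by limma).

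Among 15 further oxidoreductases and folding factors 1 rose. This was QSOX1 (chromosome 1, 180123967 to 180169859, listed with FLJ23867), a secreted sulfhydryl oxidase, with 108, 108 and 104 FPKM in miR-424 libraries and 89.2, 89.5 and 87.5 FPKM in EV libraries. Its miR-424 libraries were all higher, including replicate 3 (log2 change 0.26 ± 0.04, SE; BH-adjusted p = 0.0105 by limma). Of 17 further degradation genes 3 fell. ERLIN2, which acts on the IP3 receptor, fell to 15.8 ± 1.04 FPKM in miR-424 cells, against 19.8 ± 0.522 FPKM in EV cells (SD, n = 3 each). It did not pass without miR-424 replicate 1 or with the block on replicate number (BH-adjusted p = 0.0656 and 0.0712 by limma). AUP1 and SELS (selenoprotein S) had log2 changes of -0.14 and -0.19 (BH-adjusted p = 0.0476 and 0.0486 by limma). AUP1 did not pass in 12 and SELS did not pass in 13 of the 17 alternative settings. Among these were median-of-ratios scaling (BH-adjusted p = 0.306 and 0.221 by limma) and removal of the GC trend (BH-adjusted p = 0.151 and 0.0933 by limma).

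Of 14 translocation genes 1 fell, SRPR, the receptor subunit that docks ribosomes at the ER. It read 31.7, 32.7 and 35.3 FPKM in miR-424 libraries and 42.0, 42.6 and 44.5 FPKM in EV libraries, with all miR-424 values lower (log2 change -0.37 ± 0.05, SE; BH-adjusted p = 0.0108 by limma). Under median-of-ratios scaling its BH-adjusted p by limma was 0.0517, so it did not pass there. Of 13 cytosolic and mitochondrial chaperones 1 fell, the small heat shock protein gene HSPB1, to 293 ± 20.9 FPKM in miR-424 cells, against 395 ± 15.1 FPKM in EV cells (SD, n = 3 each; BH-adjusted p = 0.0107 by limma). HSPA1A and HSPA1B are near-identical copies in this list, and their values are uncertain. None of 14 genes of N-glycosylation and lectins and none of 6 further regulators of the response passed, with 2 and 1 at an unadjusted p under 0.05. Leaving out any 1 EV library ended all 8 calls of these lists, with adjusted p for DDIT3 of 0.0509 to 0.0571 (limma, BH). Most calls over all 11574 tested loci were lost in these fits too, with 31 to 35 higher and 77 to 84 lower, against 144 and 731 with all libraries. The log2 changes moved little, to between -0.38 and -0.39 for DDIT3 and between 0.25 and 0.27 for QSOX1.

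The seed match of miR-424 was not more frequent among the members than elsewhere. A match was found in the longest annotated 3′ UTR of 8 of the 34 tested members (23.5%; SEC61A1, PDIA6, OS9, UGGT1, SEL1L, ATF6, CREB3L1 and ERN1) and of 2570 of 10695 tested loci with a 3′ UTR (24.0%). The median log2 change was -0.05 with and -0.0013 without a match among the members, and -0.06 with and -0.04 without among all loci. Of the 6 members that were lower without overlap, 4 had a match (CREB3L1, ATF6, OS9 and SEC61A1), and 4 of the 28 other members had one. Over all loci 30.4% of those lower without overlap and 21.6% of the others had one. The 6 genes were grouped by their values, so these shares are a description with no test. The median log2 change was 0.0049 for the tested members with the ER stress response element and -0.02 for those without it.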

How the data were processed

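mRNA of 6 samples, 3 with the miR-424 construct and 3 with the empty vector, was sequenced from TruSeq libraries, per the labels' protocols. The authors deposited 1 table of FPKM values with a column per sample and hg19 positions. The tools TopHat 1.4.1, Cufflinks 1.3.0 and Cuffdiff, with the builds hg19 and GRCh37, stand in the submitters' processing notes, without role or order; annotation, use of strand and scaling between libraries are not given there. Overlapping genes may therefore share reads, and a locus with several symbols has 1 value. Neighbouring genes of a bundle (CREB3 with TLN1 and GBA2, SRPR with FAM118B) carry the same position but a value each.

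Groups and replicate numbers came from the sample titles. FPKM values were taken as log2(FPKM + 1), which understates changes of low genes, and loci with a mean of 1 FPKM or more were compared in limma 3.58.1 (R 4.3.3; trended prior variance, no covariate, two-sided, threshold 0.05 after Benjamini-Hochberg adjustment over all 11574 loci). The fit was tested on simulated data. An exact permutation test of 3 against 3 cannot go below p = 0.1 and was not used. Steps in low FPKM values, read as whole fragments, put the depths at 0.768 to 1.05 of EV replicate 1, but the commonest step held, to 0.03 on the log2 scale, for 3.73% to 11.3% of those loci, so depth stays unknown and no counting interval is given.

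Alternatives numbered 17: median-of-ratios scaling over loci above 1 FPKM in every library, quantile normalization, pseudocounts of 0.1 and 0.5, no filter, a minimum of 5 FPKM, a constant prior variance, a replicate block, removal of a lowess trend on transcript GC content per library, combinations of these, and each library left out. GC content came from the longest matched GENCODE 29 transcript (98.9% of tested loci). Motifs were searched in RefSeq windows with Python 3.11.15.

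The members, the 7 pathway lists and the tests were chosen with earlier results of these data known. Named genes were ERN1, ATF6, XBP1 and HSPA5, members past the threshold, up to 3 genes past the threshold per pathway list, EIF2AK3, ATF4, DDIT3 and the MIR424 locus; other members are named for their values.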

Additional observations from a re-analysis of the deposited data

How the results depend on the processing

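The 34 tested members gave 0 higher and 0 lower calls, and this count held in 12 of 17 alternative settings. The exceptions were median-of-ratios scaling (1 higher), the GC trend removed (3 higher, 1 lower), the replicate block with the GC trend removed (3 higher), the GC trend removed without miR-424 replicate 3 (11 higher, 2 lower), and, among the fits that left out 1 library, the one without miR-424 replicate 3. Leaving out 1 library at a time gave 0 to 10 higher and 0 to 6 lower members. For the other settings in which a count moved by over 1.5 times, all tested loci gave 303 higher and 501 lower with median-of-ratios scaling, 315 higher and 449 lower with quantile normalization, 468 lower at a minimum mean of 5 FPKM, 683 higher with the GC trend removed, and 1686 higher and 1730 lower with the GC trend removed without miR-424 replicate 3, against 144 and 731; leaving out 1 library gave 31 to 1728 higher and 77 to 2574 lower. With the values as deposited, 1 member was higher with groups that do not overlap, and so were 763 of all 11574 tested loci. Median-of-ratios scaling gave 9 members and 1794 loci, whereas quantile normalization gave 7 and 1858. With the GC trend removed, with or without the block, there were 11 members and 2227 of 11444 loci. Removing the GC trend and leaving out miR-424 replicate 3 gave 20 members and 3400 of 11444 loci. The fits with 1 library left out gave 1 to 18 members and 891 to 3108 loci. Where the member count rose, that of all tested loci rose too, but not in proportion. As a share, the members on the higher side lay below all tested loci with the values as deposited. They lay above all tested loci under both scalings and in each fit with the GC trend removed. The same held without miR-424 replicate 3 and without EV replicate 3. Why the shares moved was not tested. The pathway lists, with 1 higher and 7 lower, changed to 3 and 4 under median-of-ratios scaling, to 2 and 4 under quantile normalization, and gave 2 higher without a filter on low values, 4 higher with the GC trend removed, 20 higher with the GC trend removed without miR-424 replicate 3, and 0 to 21 higher and 0 to 17 lower with 1 library left out. Both scalings moved the median of all loci by 0.05 on the log2 scale.

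Whether the replicate numbers pair the samples was not settled, because the correlations between libraries of their deviations from the group means were weak. Same-numbered libraries had correlations of 0.051, 0.152 and 0.127, and differently numbered ones lay between -0.194 and 0.061. The highest of the latter, miR-424 replicate 2 with EV replicate 1, was above the value that EV replicate 1 had with its own number. With the replicate block all tested loci gave 79 higher and 270 lower, the members 0 and 0, and the pathway lists 1 higher and 3 lower. With the replicate block and the GC trend removed all loci gave 396 higher, the members 3 higher and the pathway lists 2 higher and 4 lower.

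Changes near 0 took the other sign in some settings, none of them called with the values as deposited. On the log2 scale median-of-ratios scaling gave P4HB 0.018, HSPA5 0.024, PDIA4 0.011, MANF 0.015, DERL2 0.030, UGGT1 0.020, HERPUD1 0.031, DNAJC3 0.041, SDF2L1 0.0065, SYVN1 0.043 and EIF2AK3 0.0061, quantile normalization gave MANF 0.0093, DERL2 0.025, UGGT1 0.015, HERPUD1 0.039, DNAJC3 0.044, SDF2L1 0.014, SYVN1 0.044 and EIF2AK3 0.017, and removal of the GC trend, with or without the replicate block, gave P4HB 0.034, HSPA5 0.0036, PDIA4 0.012, MANF 0.021, DERL2 0.0047, UGGT1 0.00067, HERPUD1 0.019, DNAJC3 0.018, SDF2L1 0.063 and SYVN1 0.065. With the GC trend removed without miR-424 replicate 3 they were P4HB 0.032, HSPA5 0.017, PDIA4 0.075, SEC61B 0.010, MANF 0.055, DERL2 0.063, HERPUD1 0.061, DNAJC3 0.066 and SYVN1 0.10. With 1 library left out at a time the ranges were CREB3L2 -0.012 to 0.098, CRELD2 -0.047 to 0.038, DERL1 -0.0017 to 0.032, DERL2 -0.095 to 0.12, DNAJC3 -0.077 to 0.12, EIF2AK3 -0.081 to 0.011, ERO1L -0.045 to 0.31, HERPUD1 -0.063 to 0.051, HSPA5 -0.059 to 0.022, PDIA3 -0.031 to 0.082, PDIA4 -0.088 to 0.026, PDIA6 -0.025 to 0.049, SDF2L1 -0.31 to 0.12, SEL1L -0.013 to 0.089, SYVN1 -0.044 to 0.022, UGGT1 -0.065 to 0.012 and XBP1 -0.032 to 0.14. The causes of these moves were not tested. Read numbers are unknown, so how far counting error limits the lowest members, ERN1, ERO1LB and DERL3, could not be judged.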
